A study of Daphnia magna with 3 samples.

Results

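In the water flea Daphnia magna, transcripts counted in the gut were compared with those in the carcass, the sample that the labels also call the body. The comparison used 6 of the 21 libraries of a transcriptional atlas: 3 gut and 3 carcass libraries, chosen by the body part that the deposited table gives for each barcode. Gut and carcass shared the genotype, IL-M1-8, and the culture conditions: 20 mL of ADaM medium for each adult, a temperature of 20 °C, and a daily feed of 100000 cells per mL of the green alga that the labels spell Scendesmus acutus. Each of the replicates, numbered 3, 4 and 7, was 1 pool of 7 barcoded body parts, sequenced as ligation-prepared cDNA on the Oxford Nanopore platform. The labels do not say whether the replicates came from separate cultures, how many animals gave a library, or which tissues were left in the carcass. What the p-values measure is thus no more than how far these samples spread, and that spread may be technical.

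The gut of Daphnia is a tube that runs the length of the trunk, with a pair of caeca at the front. Its epithelium secretes digestive enzymes, takes up nutrients and lays down a peritrophic membrane around the ingested algae. In crustaceans the trunk outside the gut holds muscle, epidermis, fat cells and nerve cord. Neither label could be checked against marker genes. The identifiers name gene models on 572 contigs, no gene names stand beside them in the deposited table, and 0 of the 33957 matched the 28335 genes of the RefSeq table for assembly ASM2063170v1.1. No gene function and no sequence is therefore given, and transcripts are called by their model names.

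The gut was the thinnest part of the atlas. Its libraries held 32202 reads (replicate 3), 4161 (replicate 4) and 26378 (replicate 7). The carcass libraries held 262185, 177033 and 416875 reads. All 3 gut libraries were shallower than all 3 carcass libraries. Across genes, the Spearman correlation of a gut library with the carcass library of its own pool was 0.64, 0.26 and 0.51 for replicates 3, 4 and 7 (4035 genes, which are not independent replicates and are counted at unequal depth). The 3 guts correlated with each other at 0.24 to 0.30. Several libraries stood apart. The gut of replicate 7 correlated with the eggs at 0.65, 0.58 and 0.69, above its own carcass. Its correlations with the hemocytes of replicate 4 (0.63) and the head of replicate 3 (0.54) also lay above that carcass. The gut of replicate 4 had most of its reads on 1 transcript. In the carcass of replicate 3, 8 transcripts that dominated the heads of replicates 4 and 7 took 13.2% of the reads outside that transcript. The other carcasses held them at 0.0412% and 0.0322%. The 8 were chosen after their values were seen, as at least 16-fold lower in the gut than in the carcass of replicate 3. Their share in that carcass follows in part from this choice. The edgeR calls, and the fold changes of the transcripts that 1 of these libraries leads, are given below with and without it.

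The transcript with the most reads in gut was the genemark model processed-gene-0.4-mRNA-1 of contig falcon_000292F, 3603 bases long. It took 20.4%, 67.2% and 9.94% of the gut reads of replicates 3, 4 and 7, against 10.3%, 5.397% and 5.49% of the carcass reads. Its share was higher in gut than in carcass in each of the 3 pools, by 1.99 times in replicate 3 (95% counting interval 1.94 to 2.05), 12.5 times in replicate 4 (11.9 to 12.99) and 1.81 times in replicate 7 (1.74 to 1.89). The gut of replicate 7 nevertheless lay below the carcass of replicate 3, so the groups overlapped. The mean share was 32.5% ± 30.5 in gut (SD, n = 3) and 7.05% ± 2.78 in carcass (SD, n = 3), a difference that a two-sided exact permutation test over libraries did not separate (p = 0.2, where 3 against 3 cannot go below 0.1). Without the gut of replicate 4 the difference fell from 25.5 to 8.14 percentage points. In edgeR's quasi-likelihood test its log2 fold change was 1.35 ± 1.30 (SE, adjusted p = 0.729), and 0.68 without that library (adjusted p = 0.904). Of the other 4 models on its contig, 1 had no read in these libraries, and the most counted, maker-falcon_000292F-snap-gene-0.9-mRNA-1, had 220, 5 and 27 reads in gut and 2086, 82 and 126 in carcass.

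**Figure D1:**
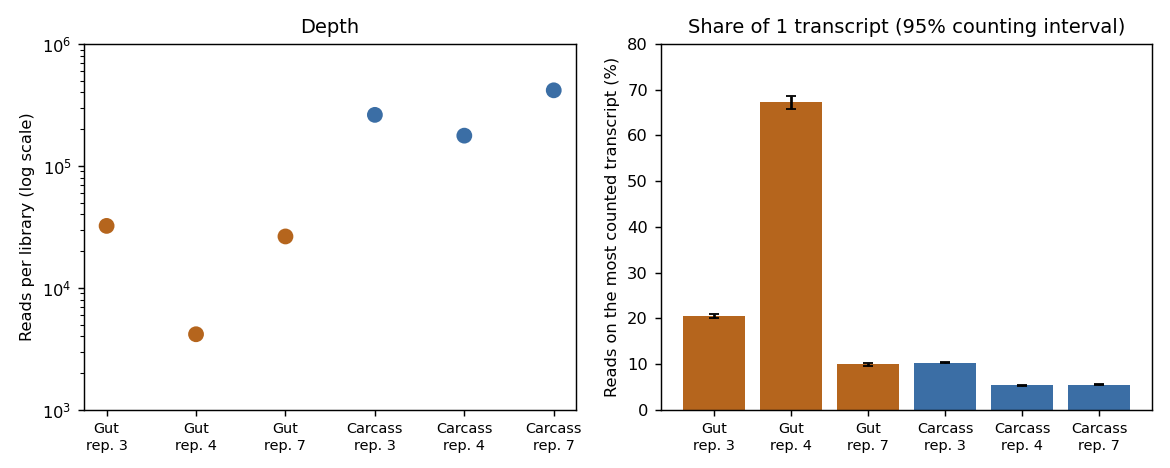
Left, reads per library on a log axis; right, percent of a library's reads on the most counted gut transcript, with 95% Clopper-Pearson intervals that cover counting error only. The 3 gut libraries (brown) lie below the 3 carcass libraries (blue) in depth, and the gut of replicate 4 has 67.2% of its reads on this transcript.

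Because this transcript weighed so unequally, rates in the individual pools were taken as reads for every 1000000 reads that lay elsewhere, written rpm. These were 25624, 1364 and 23755 reads in gut and 235282, 167479 and 394011 in carcass. On this scale 3 reads, the limit that a count of 0 allows, stood for 117, 2199 and 126 rpm in the gut of replicates 3, 4 and 7. A transcript was called well-counted where the mean of the pooled gut rate and the pooled carcass rate reached 300 rpm, which 597 transcripts did. This filter used the same counts that were then compared. A transcript that was high in a single library could pass it through that library alone, so the filter favours such transcripts.

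In the edgeR test no gene was called different between gut and carcass, while a few were called by DESeq2 or without a filter. Of 4035 genes tested with edgeR, 0 were higher and 0 lower in gut at an adjusted p under 0.05 (0% each). At an unadjusted p under 0.05, 76 were higher (1.88%) and 366 lower (9.07%). The smallest adjusted p was 0.281. Without the gut or the carcass of replicate 3, or without the gut of replicate 4, the calls were again 0 and 0, and without the gut of replicate 7 they were 3 and 0. They were also 0 and 0 with limma voom and with the pool number as a replicate block. At an adjusted p under 0.05, DESeq2 called 6 genes higher (0.149%) and 4 lower (0.0992%), and edgeR without a filter on low counts called 48 higher (0.244%) and 37 lower (0.188%) of 19682. At an unadjusted p under 0.05 DESeq2 had 135 higher (3.35%) and 142 lower (3.52%), and edgeR without a filter 155 (0.788%) and 1084 (5.51%). Of the 6 higher calls of DESeq2, 1 was higher in gut in 3 of 3 pools, and of the 48 without a filter 0 were. Of the lower calls, 24 of the 37 without a filter were lower in gut in 3 of 3 pools, and 0 of the 4 of DESeq2. Over the 597 well-counted transcripts, 14.2% were higher and 17.4% lower in 3 of 3 pools. Only 14 of the 48 and 16 of the 37 were well-counted, so these shares come from a different set. The 37 had a median of 1 read in the pooled guts and 433 in the pooled carcasses. Their direction in replicate 4 is thus weak, since 3 reads in that gut stood for 2199 rpm. In all 48 the gut of replicate 3 held more reads than the other 2 gut libraries together. The balance of directions rested on the scaling: the median log2 fold change over all genes was -0.55 with TMMwsp factors, -0.49 with TMM, -0.20 with RLE and -0.01 with no factors. In bulk samples such as these, fewer cells of a type and less RNA per cell cannot be told apart.

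Each pool had resolved differences of its own. The exact interval of the gut to carcass ratio was taken for each of the 597 well-counted transcripts from the counts of the 2 libraries, so it compares those libraries and covers counting error only. In replicate 3 the interval lay above 1 for 109 transcripts (18.3%) and below 1 for 43 (7.2%). In replicate 4 the numbers were 43 (7.2%) and 14 (2.35%), and in replicate 7 they were 178 (29.8%) and 159 (26.6%). On this scale resolved transcripts were most numerous in replicate 7, in both directions. In replicate 4 the ratio itself lay above 1 for 190 (31.8%) and below 1 for 402 (67.3%). With total reads as the denominator the numbers were 81 and 66 in replicate 3, 15 and 80 in replicate 4 and 165 and 167 in replicate 7. With TMMwsp-scaled library sizes they were 66 and 100, 2 and 260, and 60 and 303, so that replicate 3 then had the most above 1.

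**Figure D2:**
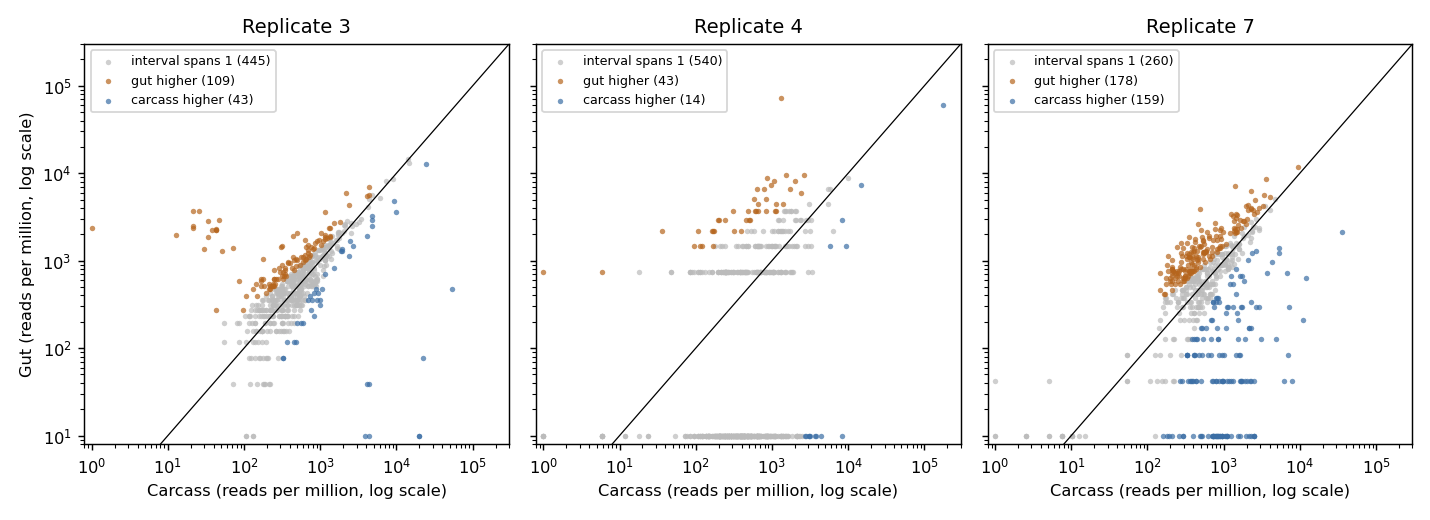
Rate of each of the 597 well-counted transcripts in gut against carcass within each pool, in reads for every 1000000 outside the most counted transcript, on log axes. Transcripts without a read are drawn at the edge of the axis, the line marks equal rates, and colours show whether the 95% interval of the ratio lies above or below 1: replicate 3 lies close to the line with 109 above and 43 below, replicate 4 has 350 transcripts at 0 in gut, and replicate 7 has a broad group of 159 that are higher in carcass.

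Few of these differences were shared by the pools. The ratio pointed toward gut in 3 of 3 pools for 85 transcripts (14.2%) and toward carcass for 104 (17.4%). Every gut library lay above every carcass library for 32 (5.36%) and below for 34 (5.7%). The lower counts lean on the shallow library, since 86 of the 104 and 30 of the 34 had 0 reads in the gut of replicate 4. Among the 85, 35 had a single read there. The split depended on the denominator: it was 46 toward gut and 150 toward carcass with total reads, and 18 and 255 with TMMwsp-scaled sizes. With replicate 4 left out, 193 transcripts were higher (32.3%) and 143 lower (24%) in both other pools. With replicate 3 left out the numbers were 107 and 212, and with replicate 7 left out 131 and 185.

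In 9 transcripts (1.51%) the interval lay above 1 in all 3 pools, and in 1 (0.168%) it lay below 1 in all 3. The 9 took 1.98%, 11.3% and 3.51% of the reads outside the most counted transcript in gut and 0.899%, 0.992% and 1.44% in carcass. For 7 of them every gut library lay above every carcass library, as it did for 32 of all 597 (5.36%). The 9 were chosen from these same 6 libraries, so their shares and this count follow in part from the choice. Their ratios ran from 1.55 to 4.37 in replicate 3, from 2.45 to 55.3 in replicate 4 and from 1.35 to 7.91 in replicate 7. By edgeR 3 of the 9 had an unadjusted p under 0.05. Of the 4035 genes tested, 1.88% were higher in gut at that unadjusted p. The contrast rests on the same 6 libraries, so the 3 also follow in part from the choice of the 9. The adjusted p of the 9 ran from 0.405 to 0.995. Their log2 fold changes in that test, which scales the guts differently, ran from -0.38 to 2.02, so not all were on the gut side there. The count was 4 with total reads and 1 with TMMwsp-scaled sizes. The 9 models lie on 7 contigs, and those that share a contig are uncertain, since neighbouring models can hold the same reads.

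The transcript whose interval stayed above 1 in all 3 pools under each of the 3 denominators was snap_masked-falcon_000017F-processed-gene-14.89-mRNA-1, of 2904 bases. With TMMwsp-scaled sizes the ratio itself, apart from its interval, was above 1 in all 3 pools for 5 of the 9. The named transcript had 3 intervals above 1 under each denominator. This transcript had 153, 100 and 169 reads in the gut of replicates 3, 4 and 7, or 5971, 73310 and 7114 rpm. In carcass it had 516, 222 and 552 reads, or 2193, 1326 and 1401 rpm. All gut libraries lay above all carcass libraries, and the gut of replicate 4 stood far above the other gut libraries. In replicates 3, 4 and 7 the gut to carcass ratio was 2.72 (2.26 to 3.27), 55.3 (43.2 to 70.3) and 5.08 (4.25 to 6.04). The size in replicate 4 depended on the denominator: it was 19.2 with total reads and 8.39 with TMMwsp-scaled sizes. In rpm the transcript was higher in each gut library than in all 18 libraries of the other body parts. Among those the antenna of replicate 4 came closest at 5428 rpm. Its log2 fold change by edgeR was 2.02 ± 0.95 (SE, adjusted p = 0.448), and 1.29 without the gut of replicate 4 (adjusted p = 0.716). It was also the transcript with the clearest excess in the gut of replicate 4.

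The clearest excess in the gut of replicate 7 was in genemark-falcon_000011F-processed-gene-28.40-mRNA-1, of 2716 bases. It had 49, 5 and 92 reads in gut, or 1912, 3666 and 3873 rpm, and 103, 51 and 193 reads in carcass, or 438, 304 and 490 rpm. The groups did not overlap, and the lowest gut library lay just above the highest other library, hemocytes of replicate 4 at 1870. The ratio was 4.37 (3.04 to 6.20), 12.04 (3.75 to 30.0) and 7.91 (6.10 to 10.2) in replicates 3, 4 and 7, and the edgeR log2 fold change was 1.82 ± 0.82 (SE, adjusted p = 0.424), and 1.28 without the gut of replicate 7 (adjusted p = 0.558). With TMMwsp-scaled sizes its interval lay above 1 in 2 of the 3 pools.

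Among well-counted transcripts that pointed toward gut in every pool, the smallest edgeR p belonged to the maker model augustus-gene-26.6-mRNA-4 of contig falcon_000000F, a long one of 15234 bases. It had 33, 1 and 2 reads in the gut of replicates 3, 4 and 7 and 12, 8 and 21 in carcass. The 33 reads in the gut of replicate 3 carried it past the well-counted filter. The carcass libraries were nearly equal at 51.0, 47.8 and 53.3 rpm, while the gut libraries were spread over 1288, 733 and 84.2. The ratio was 25.3 in replicate 3 (12.7 to 53.7), but 15.4 in replicate 4 (0.346 to 115) and 1.58 in replicate 7 (0.180 to 6.46), so replicate 3 alone was resolved. With TMMwsp-scaled sizes the ratio in replicate 7 was 0.893, on the other side of 1. Its log2 fold change was 3.06 ± 0.79 by edgeR (SE, adjusted p = 0.281), and DESeq2 called it (adjusted p = 0.0362). Over the 14 alternatives that tested it, the adjusted p ran from 0.0362 to 0.977 and the log2 fold change from 0.16 to 3.55. The lowest log2 fold change, 0.16 (edgeR adjusted p = 0.977), was that without the gut of replicate 3.

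The second was snap_masked-falcon_000026F-processed-gene-6.3-mRNA-1, a short model of 276 bases that is one of the 9. It had 20, 3 and 44 reads in gut, or 780, 2199 and 1852 rpm, and 58, 29 and 140 in carcass, or 246, 173 and 355. Every gut library exceeded every carcass library. The ratio was 3.17 (1.80 to 5.34), 12.7 (2.48 to 41.0) and 5.21 (3.63 to 7.36), and the edgeR log2 fold change was 1.42 ± 0.62 (SE, adjusted p = 0.405). Hemocytes were the other body part with its highest mean rate.

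Toward the carcass, the smallest edgeR p among transcripts with the same direction in every pool was that of maker-falcon_000011F-augustus-gene-18.9-mRNA-1, of 783 bases. It is uncertain, since genemark-falcon_000011F-processed-gene-8.11-mRNA-1 on its contig followed it over the 21 libraries (correlation 0.952, 1872 reads against 1833). The maker model had 5, 0 and 10 reads in gut, or 195, 0 and 421 rpm, and 130, 144 and 220 in carcass, or 553, 860 and 558. The gut libraries all lay below the carcass libraries. The ratio was 0.353 in replicate 3 (0.113 to 0.846) and 0.754 in replicate 7 (0.357 to 1.41), and in replicate 4 the carcass rate itself was under the limit that 0 gut reads allows. The edgeR log2 fold change was -2.06 ± 0.62 (SE, adjusted p = 0.281).

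The next was maker-falcon_000036F-augustus-gene-0.18-mRNA-2, of 2790 bases, with 15, 0 and 7 reads in gut and 209, 514 and 183 in carcass. The rates were 585, 0 and 295 rpm in gut against 888, 3069 and 464 in carcass, so the groups overlapped. In replicate 4 the gut was at least 1.395-fold lower, set against 3 reads in that library, and the other 2 intervals spanned 1. The edgeR log2 fold change was -2.63 ± 0.82 (SE, adjusted p = 0.286).

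**Figure D3:**
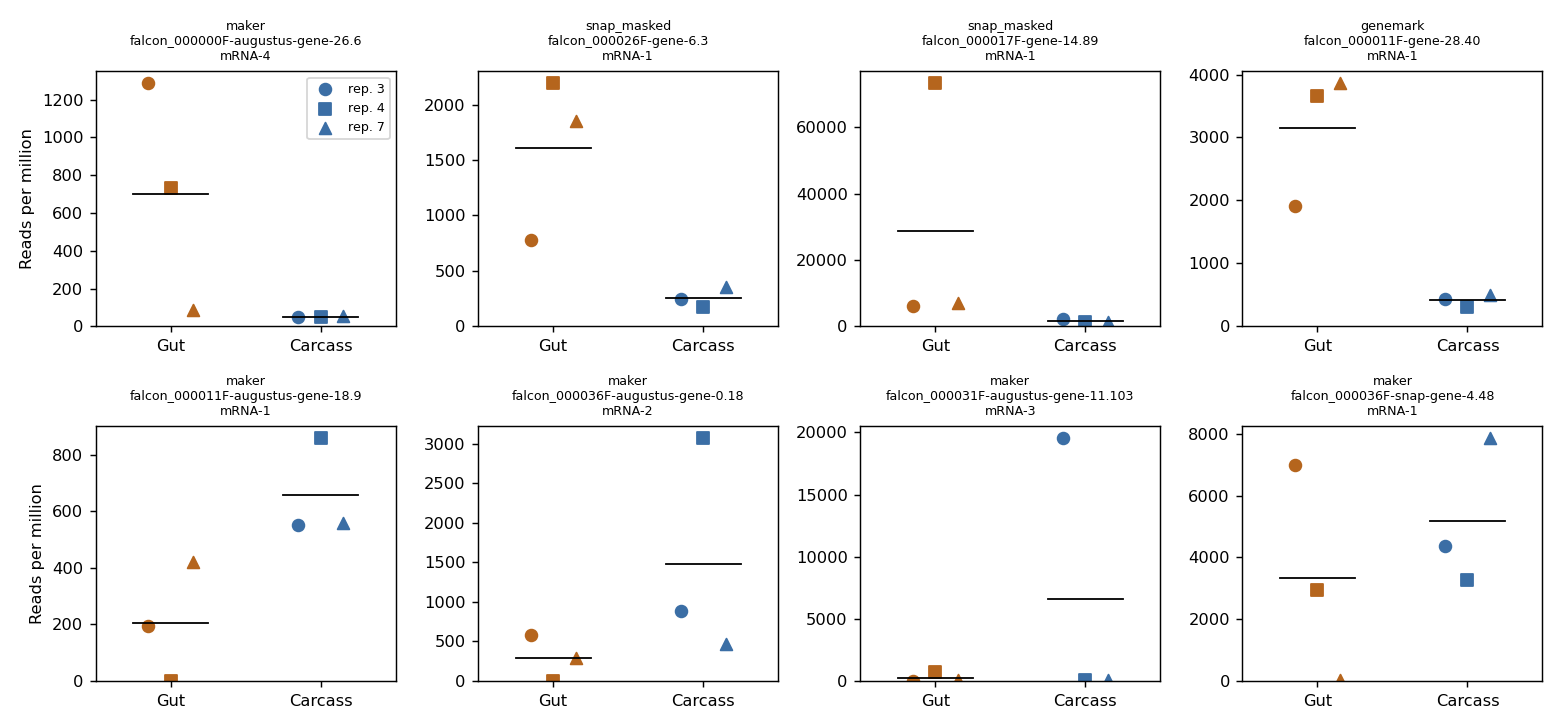
Rates of 8 transcripts in the 3 gut and 3 carcass libraries, in reads for every 1000000 outside the most counted transcript, with the axis from 0; symbols mark the replicate and bars the mean of 3. In the upper panels gut exceeds carcass in each pool, the first 2 lower panels show carcass above gut in each pool, and the last 2 show differences of a single pool, such as the carcass of replicate 3 at 19550 for maker-falcon_000031F-augustus-gene-11.103-mRNA-3.

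Other transcripts differed steeply in 1 pool and not in the others. In replicate 3 the clearest excess in gut was in augustus_masked-falcon_000002F-processed-gene-11.47-mRNA-1, with 60 reads in gut and 0 in carcass, at least 184-fold higher against 3 reads in that carcass library. The guts of replicates 4 and 7 had 0 reads of it. The transcript was thus well-counted only through the gut of replicate 3, with pooled rates of 1182 rpm in gut and 2.5 in carcass. Its log2 fold change of 7.69 ± 2.07 (SE, edgeR adjusted p = 0.281) was -2.24 without the gut of replicate 3. The clearest excess in the carcass of replicate 3 was in maker-falcon_000031F-augustus-gene-11.103-mRNA-3, with 4599 reads in carcass and 0 in gut, at least 167-fold lower in gut. The carcasses of replicates 4 and 7 had 14 and 21 reads and the guts 1 each, so a single library held most of the difference. The edgeR log2 fold change was -7.89 ± 2.67 (SE, adjusted p = 0.33), and -1.42 without that library (adjusted p = 0.849). This model is uncertain, because maker-falcon_000031F-augustus-gene-11.97-mRNA-1 on the same contig held 53386 reads over the 21 libraries against its 53396.

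In replicate 4 the clearest excess in carcass was in snap_masked-falcon_000357F-processed-gene-0.2-mRNA-1, with 0 reads in gut and 1378 in carcass, at least 3.74-fold lower in gut. In replicate 7 it had 17 reads in gut and 1439 in carcass, a ratio of 0.196 (0.114 to 0.315), but in replicate 3 it had 135 and 1414, a ratio of 0.877 (0.729 to 1.05). In replicate 7 the clearest excess in carcass was in maker-falcon_000036F-snap-gene-4.48-mRNA-1, with 1 read in gut and 3100 in carcass, a ratio of 0.00535 (0.000135 to 0.0298). In replicate 3 the same transcript was higher in gut, with 179 reads against 1031 and a ratio of 1.59 (1.35 to 1.87). Neither was separated by edgeR. The log2 fold change of the first was -1.92 ± 1.02 (SE, adjusted p = 0.496), and -1.51 without the gut of replicate 4 (adjusted p = 0.638). That of the second was -1.32 ± 1.19 (SE, adjusted p = 0.708), and -0.85 without the gut of replicate 7 (adjusted p = 0.785).

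Across the 597 transcripts the gut to carcass differences of the pools were weakly related. Their Spearman correlations were 0.17 between replicates 3 and 7, 0.31 between 3 and 4 and 0.31 between 4 and 7; these are descriptions across transcripts of 1 table, and the pools share no library. Of the 109 transcripts higher in the gut of replicate 3, 53 (48.6%) were higher in that of replicate 7, where 49.6% of all 597 were. Of the 178 higher in the gut of replicate 7, 117 (65.7%) were higher in that of replicate 3, where 58.8% of all were. Toward carcass, 34 of the 43 from replicate 3 (79.1%) pointed the same way in replicate 7, against 50.1% of all, and 70 of the 159 from replicate 7 (44.0%) did so in replicate 3, against 41.2%. By interval, 31 transcripts were higher in gut in both pools (5.19%). They were 28.4% of the 109, where 29.8% of all 597 were higher in replicate 7. They were 17.4% of the 178, where 18.3% of all were higher in replicate 3. Another 20 were lower in both (3.35%). These were 46.5% of the 43, where 26.6% of all were lower in replicate 7. These were 12.6% of the 159, where 7.2% of all were lower in replicate 3. A further 31 were higher in the gut of replicate 3 and lower in that of replicate 7 (5.19%), and 3 were the reverse (0.503%). Of the 109, as many were resolved as higher as were resolved as lower in the gut of replicate 7.

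**Figure D4:**
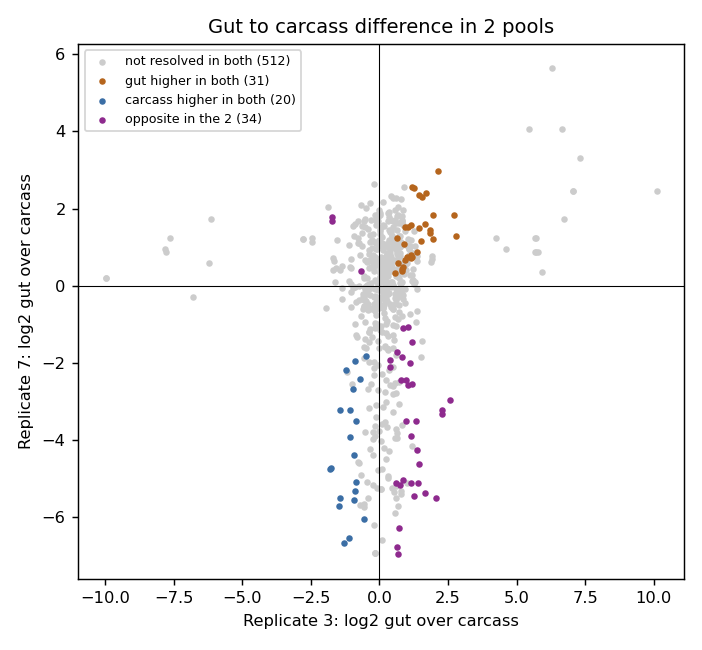
Log2 gut over carcass difference of the 597 well-counted transcripts in replicate 3 against replicate 7, with 0.5 reads added to each count. Brown marks 31 transcripts resolved as higher in gut in both pools, blue 20 resolved as lower in both, and purple 34 resolved in opposite directions; replicate 7 spreads over a wider range than most of replicate 3.

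The groups chosen in 1 pool were then read in the other pools and in the other body parts. The choice did not use the other body parts. The gut and carcass libraries of the other pools did enter it, through the well-counted filter, so they are not independent of the groups. The 159 transcripts lower in the gut of replicate 7 took 2.89% of its reads outside the most counted transcript and 27.4% in its carcass. They took 22.0% in the gut of replicate 3 and 16% in that of replicate 4, and 22.6% and 32.8% in the carcasses of those replicates. They were abundant in antenna (38.8% to 50%) and carapace (28.7% to 44.4%) and scarce in eggs (4.65% to 7.13%). Outside the pool that chose them, the gut of replicate 3 thus lay close to its carcass and that of replicate 4 below. The 178 transcripts higher in the gut of replicate 7 took 30.4% of its reads and 14.4% in its carcass. Gut exceeded carcass in the other pools too, at 13.3% against 10.9% in replicate 3 and 25.6% against 14.4% in replicate 4. Of the 1364 such reads in the gut of replicate 4, 100 lay on a single member, snap_masked-falcon_000017F-processed-gene-14.89-mRNA-1. Eggs held the 178 at 15.7% to 17.9%, hemocytes at 6.78% to 22.2% and head at 2.71% to 14.9%. Carapace held them at 6.23% to 10.7% and antenna at 4.52% to 6.66%.

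The 109 transcripts higher in the gut of replicate 3 took 16.2% of its reads and 6.48% in its carcass. Antenna libraries held them at 12.6% to 17.5%, carapace at 9.03% to 17.8%, hemocytes at 8.82% to 16.5%, head at 1.85% to 17.2% and eggs at 5.64% to 6.92%. In the other pools the gut of replicate 4 held them at 17.8%, above its carcass at 6.78%, and the gut of replicate 7 at 10.4%, against 10.7% in its carcass. The same snap_masked-falcon_000017F-processed-gene-14.89-mRNA-1, with 100 of the 1364 reads in the gut of replicate 4, belongs to the 109 and to the 9 as well. The 9 transcripts higher in gut in every pool took at most 2% in any library of another body part, in hemocytes of replicate 4, which was just above the 1.98% of the gut of replicate 3.

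**Figure D5:**
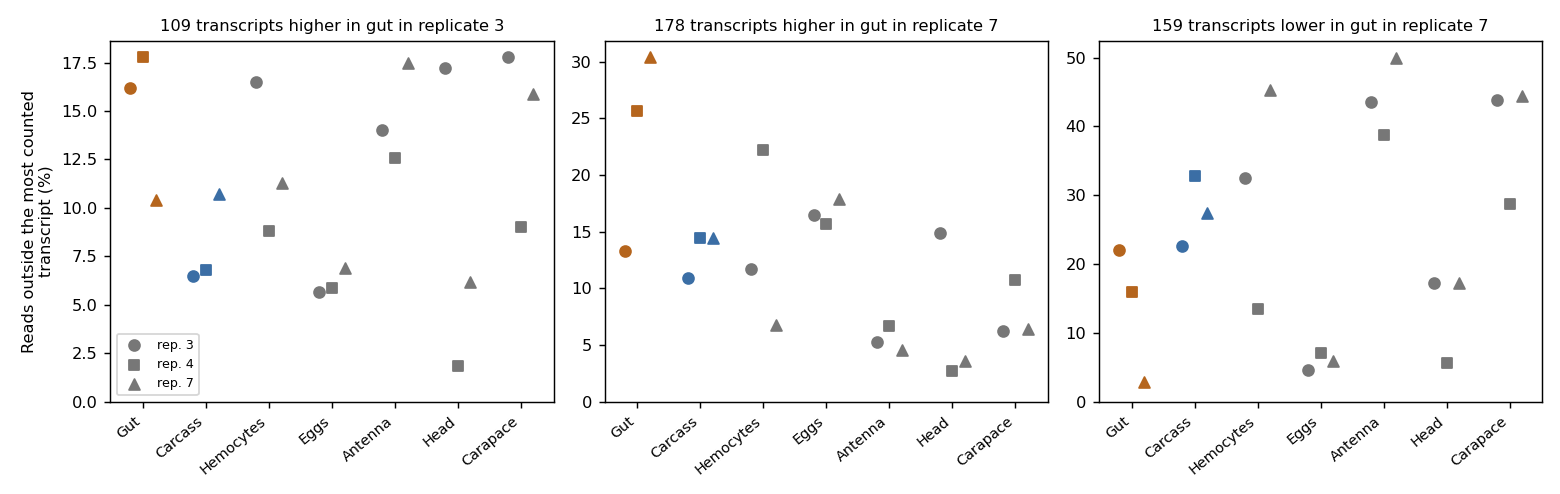
Percent of the reads outside the most counted transcript that 3 groups of transcripts took in each of the 21 libraries, by body part and replicate. The libraries of the pool that chose a group are not independent of it, and the other gut and carcass libraries entered the well-counted filter. The 159 transcripts lower in the gut of replicate 7 take 2.89% there, 22.0% in the gut of replicate 3 and up to 50% in antenna.

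The gut libraries missed many transcripts that the carcass held. Of the 597 well-counted transcripts, 8 had 0 reads in the gut of replicate 3, 350 in that of replicate 4 and 64 in that of replicate 7, and 516 had fewer than 3 reads in that of replicate 4. At the rate of its own carcass, a gut library should have given 3 or more reads of 1335 transcripts in replicate 3, 37 in replicate 4 and 1235 in replicate 7. Of these, 60 (4.49%), 12 (32.4%) and 154 (12.5%) had 0 reads in gut. Where 10 or more reads were due, 15 of 380 (3.95%), 1 of 6 (16.7%) and 48 of 421 (11.4%) had 0. In the other direction, 52 of 2060 transcripts (2.52%), 0 of 86 and 1 of 1911 (0.0523%) due 3 or more carcass reads had 0. Over the 3 pools, 7612 transcripts had a read in gut and 14457 in carcass. The 339 seen in gut and in no carcass library had at most 7 gut reads each, so no transcript with more gut reads than that was without a carcass read. Carcass held 7184 transcripts without a gut read, 1150 of them with 10 or more pooled carcass reads. Each gut library was shallower than each carcass library, so neither count compares the body parts at equal depth.

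Thinned to 4161 reads, the gut libraries showed 1735, 747 and 1849 transcripts and the carcass libraries 1668, 1559 and 1771. The means were 1443 ± 605.8 and 1666 ± 105.8 (SD, n = 3 each), which the two-sided exact permutation test did not separate (p = 0.9). The direction turned without the gut of replicate 4, where gut exceeded carcass by 125.5 transcripts, and also where the most counted transcript was set aside before thinning to 1364 reads: gut then showed 851 ± 90.9 and carcass 788 ± 56.0 (SD, n = 3 each, exact permutation p = 0.3), with gut above its own carcass in 3 of 3 pools.

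The models behind the reads were slightly longer in gut than in the carcass of the same pool, in 3 of 3 pools. The read-weighted mean length outside the most counted transcript was 3524, 3715 and 3108 bases in gut and 3222, 3595 and 3096 bases in carcass, a group difference of 145 bases that the unpaired test did not separate (two-sided exact permutation p = 0.6). Models from 2000 to under 4000 bases took 28.4%, 30.9% and 28.1% of these reads in gut, above the 24.1%, 18.5% and 24.0% in carcass in each pool. In the gut of replicate 4, snap_masked-falcon_000017F-processed-gene-14.89-mRNA-1, of 2904 bases, alone gave 100 of the 1364 reads. Models of 4000 bases or longer took 32.1%, 34.6% and 26.9% in gut and 28.6%, 40.5% and 28.4% in carcass. That class was thus lower in gut in replicates 4 and 7. The 178 transcripts higher in the gut of replicate 7 had a median length of 2262 bases and the 159 lower there 1656, against 2076 over the 597. In replicate 3 the medians were 1864 and 1915.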

How the data were processed

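The authors deposited 1 table with the read count, the transcript length and the RPKM of 33957 transcripts in 21 libraries. Counts are whole reads per transcript, per the file headers and values. In the RPKM values deposited by the authors, a read weighed equally in every library of a pool (implied totals 926451, 988239 and 2424632, the reads of each pool), so RPKM follows library depth and was used only as an alternative. SAMtools and DESeq2 are named, per the submitters' processing notes; which aligner, build and annotation were used is not given in the sources used here.

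The counts went into edgeR 4.0.16 under R 4.3.3 (filterByExpr, minimum count 10; 29922 genes left out), quasi-likelihood tests from 1 fit to all 21 libraries with a term for each body part, and Benjamini-Hochberg adjustment at 0.05, two-sided. TMMwsp factors were used in place of TMM because the gut libraries hold many zeros. The factors of gut were still 1.16, 2.28 and 1.92, those of carcass 1.02 to 1.12, although the gut of replicate 4 has most of its reads on 1 transcript; that is why pool ratios used the other reads. limma 3.58.1 and DESeq2 1.42.0 were alternatives. Ratio intervals are 95% Clopper-Pearson intervals conditional on the 2 counts (SciPy 1.17.1). PCR reads without molecular identifiers are not independent molecules, so intervals and limits cover counting error only. The procedures were tested on simulated data.

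The pool number pairs the libraries, since the labels make each replicate 1 barcoded pool; deviations of same-numbered gut and carcass libraries correlated at 0.17, -0.04 and 0.25. Gut libraries, and carcass libraries, differed from each other by more than sampling noise (chi-square 11.8 to 31.2 per degree of freedom). Named were, for each direction, the 2 well-counted transcripts with the smallest edgeR p among those with 1 direction in 3 of 3 pools, since none passed; for each pool, the highest lower and lowest upper bound of the ratio; and the most counted gut transcript. Gut, muscle, fat body, hemocyte, hemoglobin and cuticle markers could not be looked up without gene names. Members, lists and rules were chosen with earlier results of these data known.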

Additional observations from a re-analysis of the deposited data

How the results depend on the processing

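The 0 higher and 0 lower genes of edgeR held with TMM, RLE or no factors, with the 6 libraries alone, with limma voom, with the replicate block (0 and 0, so the pairing changed no call) and with both replicate 4 libraries left out, the last chosen after seeing the data. Without a filter 48 were higher and 37 lower, and with DESeq2 6 and 4. Leaving out 1 gut or carcass library gave 0 to 3 higher, 3 without the gut of replicate 7, and 0 to 0 lower. The transcripts with 1 direction in 3 of 3 pools numbered 189, 426 at a minimum of 100 rpm, 48 at 1000, 196 with total reads and 273 with TMMwsp-scaled sizes. In the authors' RPKM they numbered 577, of which 0 were higher in gut; this value follows depth by construction. With 1 pool left out they numbered 316 to 336, where 2 pools have to point one way. Both alternatives were chosen after seeing the data. The gut minus carcass difference in transcripts seen at equal depth, -222.7, was 276.9 at 26378 reads without the shallowest gut, 63.1 with the most counted transcript set aside, and -425.3 to 125.5 with 1 library left out. The cause was not tested. The share of the most counted transcript differed by 8.14 to 36.8 points with 1 library left out and by 14.9 for the 10 most counted. The log2 fold change of augustus_masked-falcon_000002F-processed-gene-11.47-mRNA-1 turned to -2.24 without the gut of replicate 3 and was 8.20 without that of replicate 7; the other named transcripts kept their direction in every edgeR, limma voom and DESeq2 setting that tested them. Depth in the gut of replicate 4, 1364 reads outside 1 transcript, limits every statement on 3 of 3 pools.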

Other observations

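The steepest differences within a pool were followed across the other body parts. These groups were chosen after their values were seen, as the well-counted transcripts at least 16-fold apart within a pool, and carry no test. In replicate 3, 16 such transcripts were higher in gut, with 955 reads in gut and 126 in carcass. The guts of replicates 4 and 7 held 2 and 4 reads of them. They took 3.73% of the reads outside the most counted transcript in the gut of replicate 3, 5.76% in the head of replicate 3, 2% in the antenna of replicate 7 and 0.879% in the antenna of replicate 3. The shares were 0.212% and 0.662% in the heads of replicates 4 and 7. Of the 16, 14 had antenna as the body part with the highest mean rate, gut and carcass aside, and 5 lay on contig falcon_000013F.

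Another 8 transcripts were lower in the gut of replicate 3, with 16 reads in gut and 31004 in carcass. The heads of replicates 4 and 7 held them at 70.6% and 46.2%, and the head of replicate 3 at 0.539%. DESeq2's 4 lower calls were all among these 8.

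In replicate 7, 80 transcripts were at least 16-fold lower in gut and 0 at least 16-fold higher. The 80 took 0.488% in the gut of replicate 7 and 17.4% in its carcass. They took 12% in the gut of replicate 3 and 11.8% in its carcass. In replicate 4 they took 9.46% in gut and 25.6% in carcass, and in eggs 0.232% to 1.18%. In replicate 4, 71 of the 80 were lower in gut, as were 67.3% of all 597. The interval there lay below 1 for 4 of the 80 and for 2.35% of all 597. In replicate 3, 37 of the 80 were lower in gut, where 41.2% of all 597 were. The interval there lay below 1 for 12 of the 80 and for 7.2% of all 597. Of the 80, 36 had antenna and 26 hemocytes as the body part with the highest mean rate, gut and carcass aside, 0 had eggs, and 15 lay on contig falcon_000036F.

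In the same edgeR model each of the other body parts gave calls against the same carcass libraries: 7 higher and 1 lower in hemocytes, 18 and 1 in head, 152 and 633 in eggs, 151 and 114 in antenna, and 185 and 65 in carapace, against 0 and 0 in gut. The median standard error of the log2 fold change was 0.92 for gut and 0.63 to 0.71 for these. Whether the responses differ between body parts was not tested.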
